A study of Mus musculus with 2 samples.

Results

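Genes of fibroblast growth factor (FGF) signalling were followed here at the RNA level in mouse embryonic stem cells, with no measure of signalling activity. The 6 genes were the receptor Fgfr2, the receptor maturation factor Shisa2, the inhibitors Spred1, Spred3 and Spry4, and the ETS transcription factor Etv4. They were chosen by symbol from the 886 genes of the deposited table, with earlier results of these data known. Their presence in it was therefore fixed in advance and is not a result. The line was 46C, mouse embryonic stem cells that carry a green fluorescent reporter in the Sox1 gene. Both groups were grown in medium with serum and the cytokine LIF; the control group overexpressed the Flag tag alone and the other group Prdm14 fused to Flag. The labels give each group 1 sample. The title and the sample labels name Prdm14 as the tagged gene, and the design text names gadd45g instead. Prdm14, a PR-domain regulator of pluripotency and the germline, had a mean of 3.296 TPM (reads corrected for transcript length and expressed as a share of the library) in Flag cells and 399 TPM in Prdm14 cells, while Gadd45g had 21.6 and 3.57 TPM, so the values go with the sample labels.

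FGFs bind receptor tyrosine kinases at the cell surface, which pass the signal through RAS, RAF and MEK to the kinase ERK. ERK activity in turn raises the transcription of its own inhibitors, the Sprouty and Spred proteins, and of ETS factors such as Etv4, and these genes are widely used as a readout of the pathway. In mouse embryonic stem cells FGF and ERK signalling is known for driving the exit from naive pluripotency, which inhibition of MEK holds back.

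The receptor and 1 inhibitor were lower in Prdm14 cells, and the other 4 genes were higher. Fgfr2 was 4.43-fold and Spred3 2.61-fold lower, while Spred1 was 2.46-fold, Spry4 2.32-fold, Etv4 2.31-fold and Shisa2 2.15-fold higher. Of all genes in the table, 52.8% were higher and 47.2% lower, so a division of 4 against 2 is near that background. Every fold is a ratio of the authors' 2 means. The table gives no value per replicate, so no SD can be set beside a mean and the differences have no replicate check. The listed genes are those the authors selected as different, 4.36% of the 20309 genes that their q-values imply were tested, and a gene outside the table has no value here. The largest rank by p-value that the listed q-values imply is 4179, against 886 listed genes. Genes with q-values in the listed range are therefore also outside the table, and absence from it does not mean no difference.

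The 250 bases before the RefSeq transcription start are given for the 4 members matched in RefSeq (build GRCm38.p6, which is mm10), to set the sequence of 2 lower beside that of 2 higher genes. Each is written 5′ to 3′ on the strand of the gene, with CG dinucleotides, the site of DNA methylation in mammals, in capitals.
Fgfr2 (chr7:130266809-130267058, minus strand): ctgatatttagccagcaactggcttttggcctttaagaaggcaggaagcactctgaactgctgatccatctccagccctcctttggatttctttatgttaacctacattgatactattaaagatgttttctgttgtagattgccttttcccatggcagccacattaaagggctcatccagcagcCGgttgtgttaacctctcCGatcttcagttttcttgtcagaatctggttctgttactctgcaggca
Spred3 (chr7:29168648-29168897, minus strand): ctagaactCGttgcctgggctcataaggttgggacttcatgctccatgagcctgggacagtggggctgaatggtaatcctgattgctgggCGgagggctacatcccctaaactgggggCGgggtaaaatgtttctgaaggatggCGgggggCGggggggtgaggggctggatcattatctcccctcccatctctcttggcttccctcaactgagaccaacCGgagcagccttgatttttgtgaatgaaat
Shisa2 (chr14:59625031-59625280, plus strand): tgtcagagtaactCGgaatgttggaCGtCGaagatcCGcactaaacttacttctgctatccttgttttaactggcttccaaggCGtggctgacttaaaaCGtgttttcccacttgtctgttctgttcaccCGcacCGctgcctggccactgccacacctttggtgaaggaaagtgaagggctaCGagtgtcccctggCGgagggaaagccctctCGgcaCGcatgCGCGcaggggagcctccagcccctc
Spred1 (chr2:117120821-117121070, plus strand): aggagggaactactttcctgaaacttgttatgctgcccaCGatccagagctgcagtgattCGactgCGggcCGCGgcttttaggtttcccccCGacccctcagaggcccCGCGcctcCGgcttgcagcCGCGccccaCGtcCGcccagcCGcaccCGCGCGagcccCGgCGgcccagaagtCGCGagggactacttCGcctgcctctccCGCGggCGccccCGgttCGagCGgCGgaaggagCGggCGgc

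The windows of the 2 lower genes held fewer CG dinucleotides than those of the 2 higher genes. The count was 2 for Fgfr2 and 6 for Spred3, against 14 for Shisa2 and 31 for Spred1. Among 32841 such windows in the RefSeq table the median was 6 and the quartiles were 2 and 16. The Spred1 window is therefore CG-rich, with 5.19% of all windows at its count or above, and the Fgfr2 window lies at the lower quartile. Over the deposited table the difference between directions was smaller: the median was 16 in 326 matched higher genes and 13 in 319 matched lower genes, taking the window richest in CG for each gene. The G and C share of the sequence was 44.0% for Fgfr2, 55.6% for Spred3, 56.0% for Shisa2 and 70.8% for Spred1. Neither CCGGAA, a core of ETS factor sites, nor GGTCTCTAA, a motif known for PRDM14, was found on either strand of the 4 windows. The first stands in 12.03% and the second in 0.241% of all windows. The RefSeq start of Spred3 is also a GENCODE M21 start, while the nearest GENCODE start lies 27 bases away for Shisa2, 303 for Spred1 and 545 for Fgfr2. For Spred1 and Fgfr2 that start is downstream and farther away than the 250 bases of a window. Their windows therefore miss the bases just before it, and CG dinucleotides there were not counted. GENCODE also places a Spred3 start upstream of its window, at 29170411 on chromosome 7. The values in the table are per gene and do not show which start was used.

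**Figure D1:**
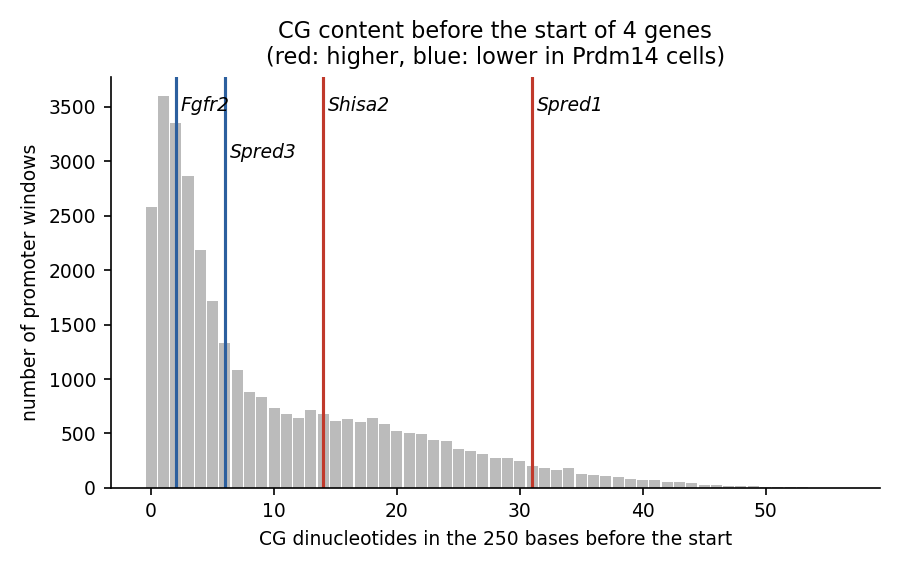
Grey bars count RefSeq promoter windows (vertical axis) by the number of CG dinucleotides in the 250 bases before the start (horizontal axis), and lines mark 4 genes, red where higher and blue where lower in Prdm14 cells. The lower genes stand at 2 and 6 and the higher genes at 14 and 31.

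Fgfr2 encodes a receptor tyrosine kinase for FGFs and was the single FGF receptor gene of 5 in the table. Fgfr2 (ENSMUSG00000030849, chromosome 7, minus strand) had a mean of 7.94 TPM in Flag cells and 1.79 TPM in Prdm14 cells. In Flag cells it stood above 43.7% of listed genes, and in Prdm14 cells above 10.3%. In the authors' deposited table its log2 fold change was -2.15, with a q-value of 2.73e-12. It was the only one of the 6 genes to differ at least 4-fold, as 25.1% of listed genes did, and its decrease was 131st in size of 418. Fgfr1, Fgfr3, Fgfr4 and Fgfrl1 have no value here. GENCODE M21 annotates 27 transcripts for Fgfr2, and the table does not separate the receptor's splice forms, which differ in the FGFs they bind. One of these transcripts spans 2.96 Mb (chromosome 7, 130162451 to 133123350) and begins inside Ctbp2 on the same strand, so 314 of the 10328 exonic bases of Fgfr2, 3.04%, overlap exons of Ctbp2. The other 26 transcripts lie between 130162451 and 130266263.

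Shisa2 encodes a protein of the endoplasmic reticulum that, like the Shisa protein first described in Xenopus, holds back the maturation of FGF receptors and of Frizzled receptors for Wnt. Shisa2 (ENSMUSG00000044461, chromosome 14, 59625308 to 59631660, plus strand) had a mean of 7.71 TPM in Flag cells and 16.6 TPM in Prdm14 cells. In the authors' deposited table the log2 fold change was 1.11 and the q-value 1.24e-08, the highest q-value of the 6. Its increase lies close to the smallest that the table lists, a log2 value of 1.00, and was 376th in size of 468. In Flag cells Fgfr2 and Shisa2 stood at nearly the same level per length, with 1.03 times as much Fgfr2. In Prdm14 cells there was 9.26 times as much Shisa2 as Fgfr2. Of the 8 Shisa genes looked for, Shisa2 was the one listed.

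Spred1 and Spred3 encode related inhibitors of the pathway, which bind RAS pathway proteins at the membrane through a Sprouty-related domain and keep RAF from being activated. Spred1 recruits neurofibromin, a GTPase-activating protein for RAS, whereas Spred3 is known as a weaker inhibitor of ERK. Spred1 (ENSMUSG00000027351, chromosome 2, 117121374 to 117182279, plus strand) had a mean of 12.2 TPM in Flag cells and 29.9 TPM in Prdm14 cells. In the authors' deposited table its log2 fold change was 1.30, the largest increase of the 4 higher genes, and its q-value 3.54e-26, the lowest of the 6. Spred3 (ENSMUSG00000037239, chromosome 7, 29158829 to 29170411, minus strand) had a mean of 12.4 TPM in Flag cells and 4.75 TPM in Prdm14 cells, with a log2 fold change of -1.39 and a q-value of 3.68e-12 in the authors' deposited table. Both genes thus started from nearly the same level per length and moved apart. The ratio of Spred1 to Spred3 was 0.982 in Flag cells and 6.31 in Prdm14 cells, a 6.42-fold shift that no common scaling of a library can change. Their summed level went from 24.6 to 34.7 TPM, with Spred1 at 49.5% of the sum in Flag cells and 86.3% in Prdm14 cells. Spred3 overlaps Ggn on the opposite strand by 202 of its 6218 exonic bases, 3.25%, and strand use in the counting is not given in the sources used here. The 2 lower genes, Fgfr2 and Spred3, are also the 2 whose exons overlap those of another gene. The part of these overlaps in their values was not tested; neither Ctbp2 nor Ggn is listed.

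**Figure D2:**
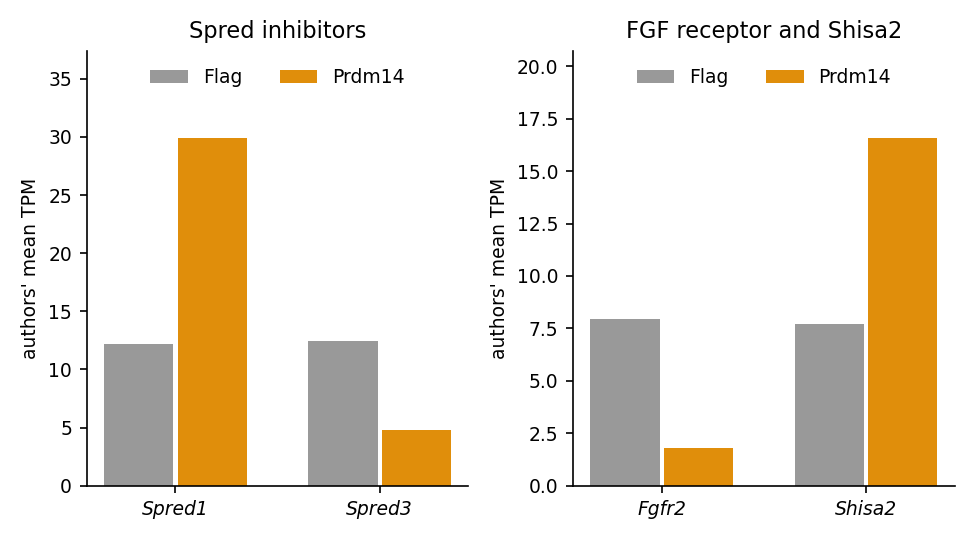
Bars give the authors' mean TPM (vertical axes, from 0) of Spred1 and Spred3 and of Fgfr2 and Shisa2 in Flag cells (grey) and Prdm14 cells (orange), with no error bars because the table holds no replicate values. Within each pair the grey bars are nearly level and the orange bars part, at 29.9 against 4.75 TPM and at 1.79 against 16.6 TPM.

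Spry4, a Sprouty protein that blocks the step from receptor to RAS and RAF, was the most abundant of the 3 inhibitors. Spry4 (ENSMUSG00000024427, chromosome 18, 38586247 to 38601415, minus strand) had a mean of 54.8 TPM in Flag cells and 127 TPM in Prdm14 cells. The authors' deposited table gives a log2 fold change of 1.21 and a q-value of 2.25e-24. It made up 69.0% of the summed level of Spry4, Spred1 and Spred3 in Flag cells and 78.6% in Prdm14 cells, and that sum went from 79.4 to 162 TPM. The ratio of Spry4 to Spred1 was 4.50 in Flag cells and 4.25 in Prdm14 cells, whereas that of Spry4 to Spred3 went from 4.42 to 26.8. The inhibitors therefore parted by gene: Spry4 and Spred1 stayed close to their ratio and Spred3 did not. Spry1, Spry2 and Spred2 have no value here.

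Etv4, an ETS transcription factor induced by FGF and ERK signalling, had the highest level of the 6 genes in both conditions. Etv4 (ENSMUSG00000017724, chromosome 11, 101769742 to 101785371, minus strand) had a mean of 89.1 TPM in Flag cells and 206 TPM in Prdm14 cells. It ranked 42nd of the listed genes by level in Flag cells and 17th in Prdm14 cells. The authors' deposited table gives a log2 fold change of 1.21 and a q-value of 1.69e-19. Etv4 and Spry4, both known transcriptional targets of ERK signalling, differed by almost the same factor, in a range (2.15-fold to 2.46-fold) that holds 111 of the 468 higher genes. The ratio of Etv4 to Spry4 was 1.63 in Flag cells and 1.62 in Prdm14 cells. Etv1 and Etv5, the closest relatives of Etv4, have no value here.

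**Figure D3:**
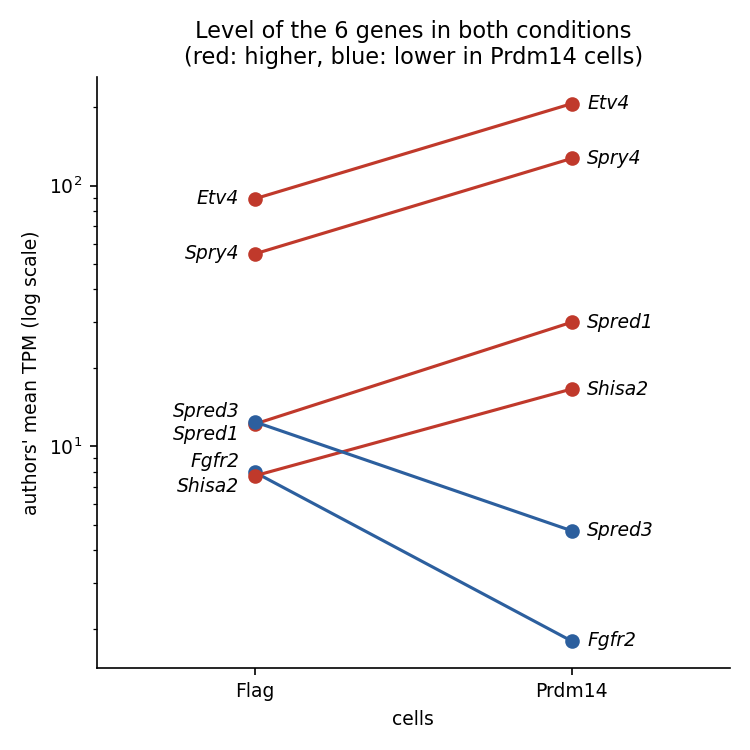
Points give the authors' mean TPM of each gene (vertical axis, log scale) in Flag and Prdm14 cells (horizontal axis), joined by a line that is red where the level was higher and blue where it was lower in Prdm14 cells. Etv4 and Spry4 run in parallel at the top, and Spred1 and Spred3, and Fgfr2 and Shisa2, leave nearly shared levels in opposite directions.

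The order of the levels changed between conditions. In Flag cells it ran from Etv4 and Spry4 through Spred3, Spred1 and Fgfr2 to Shisa2, and the highest stood 11.6 times above the lowest. In Prdm14 cells it ran from Etv4, Spry4 and Spred1 through Shisa2 and Spred3 to Fgfr2, over a 115-fold range. With no spread, the order of Spred3 and Spred1 and that of Fgfr2 and Shisa2 in Flag cells cannot be settled. The increases were of moderate size for this table: the 4 higher genes had ranks from 266 to 376 of 468 by fold, all below the median increase of 2.56-fold. Spred3 was 268th of 418 decreases, below the median decrease of 3.03-fold. By the authors' p-values the 6 genes stood at implied ranks between 142 for Spred1 and 782 for Shisa2.

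**Figure D4:**
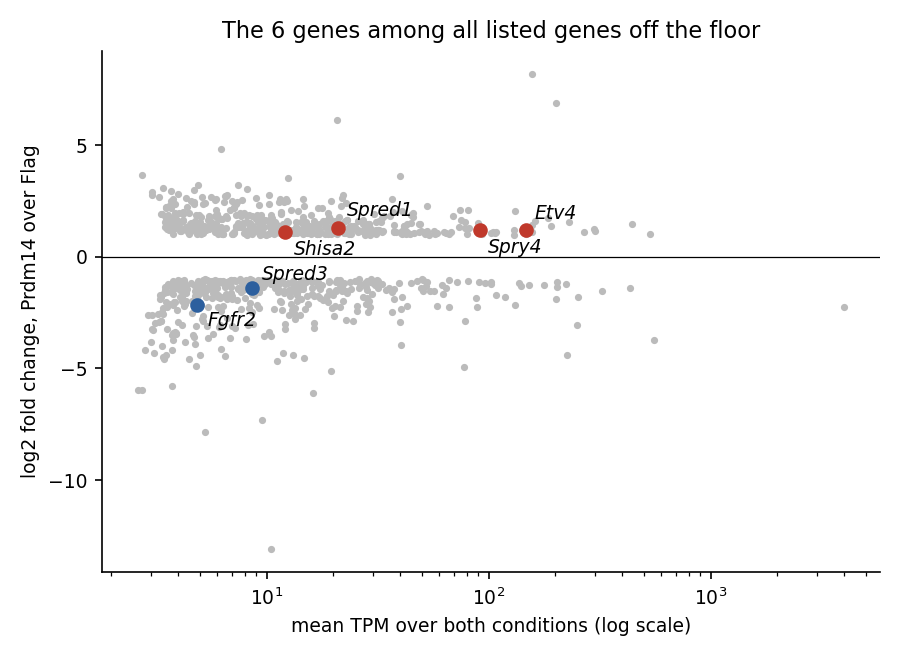
Each grey point is a listed gene off the floor of 0.0001 TPM, by its mean TPM over both conditions (horizontal axis, log scale) and its log2 fold change of Prdm14 over Flag (vertical axis); red and blue points are the 6 genes. Spry4 and Etv4 lie among the more abundant genes near the lower edge of the increases, and Fgfr2, at -2.15, lies lowest of the 6.

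Genes that shared these 2 values most closely were taken by the distance between pairs of log2 mean TPM, over 2 conditions only and among 821 named genes. Fgfr2 was nearest to Cnn1 (8.003 and 1.87 TPM in Flag and Prdm14 cells, a log2 distance of 0.0601) and Psmb9 (0.06698), and Shisa2 to Polr3gl (0.0568) and Camk1d (0.0785). Spred1 was nearest to Pura (0.0209) and Bdh2 (0.0512), and Spred3 to Alox5ap (0.0594) and Il17rc (0.0802). Etv4 was nearest to Kdm2b (87.7 and 205 TPM in Flag and Prdm14 cells, 0.0241) and Mreg (0.0888), and Spry4 to Nr0b1 (0.149) and Triml2 (0.2496). None of these genes is on the pathway lists.

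The RNA of the wider pathway was followed through 123 genes, the 6 members among them, in 8 lists by role. Of these, 6 were listed as higher, 5 as lower and 112 have no value here. The 11 listed genes are 8.94% of the lists, against 4.36% of all genes that the q-values imply were tested. Of these 11, 6 are the genes described above, chosen with the table known, and 5 are other genes. The larger share of the lists rests on that choice and is not a result. The division by direction is near the 52.8% higher and 47.2% lower of the whole table. Of 22 ligand genes 2 were listed. Fgf5, a ligand that marks the primed epiblast, was 34.9-fold lower (38.1 to 1.09 TPM, or 18.7-fold with 1 TPM added to both means), and Fgf18, another secreted FGF, was 2.56-fold higher (1.98 to 5.06 TPM) with a q-value of 0.0384 in the authors' deposited table. Fgf4, the main FGF of embryonic stem cells, has no value here. Of 24 genes for co-receptors and ligand access, Gpc4, a cell-surface heparan sulfate proteoglycan, was 2.06-fold higher (11.3 to 23.3 TPM). Hs6st2, an enzyme that adds 6-O-sulfate to heparan sulfate, was 61.9-fold lower (5.17 to 0.0836 TPM, or 5.70-fold with 1 TPM added). Both lie on chromosome X. None of the 27 adaptor and RAS to ERK cascade genes and none of the 10 other feedback inhibitors, including Dusp6, was listed. Of the 20 ERK-responsive factors and targets, Jun, an AP-1 subunit, was 2.90-fold lower (7.11 to 2.45 TPM) while Etv4 was higher. Ligands, ligand access genes, Sprouty and Spred inhibitors and ERK-responsive genes each held members in both directions, with 2 or 3 listed genes a list and both directions about equally common in the table.

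**Figure D5:**
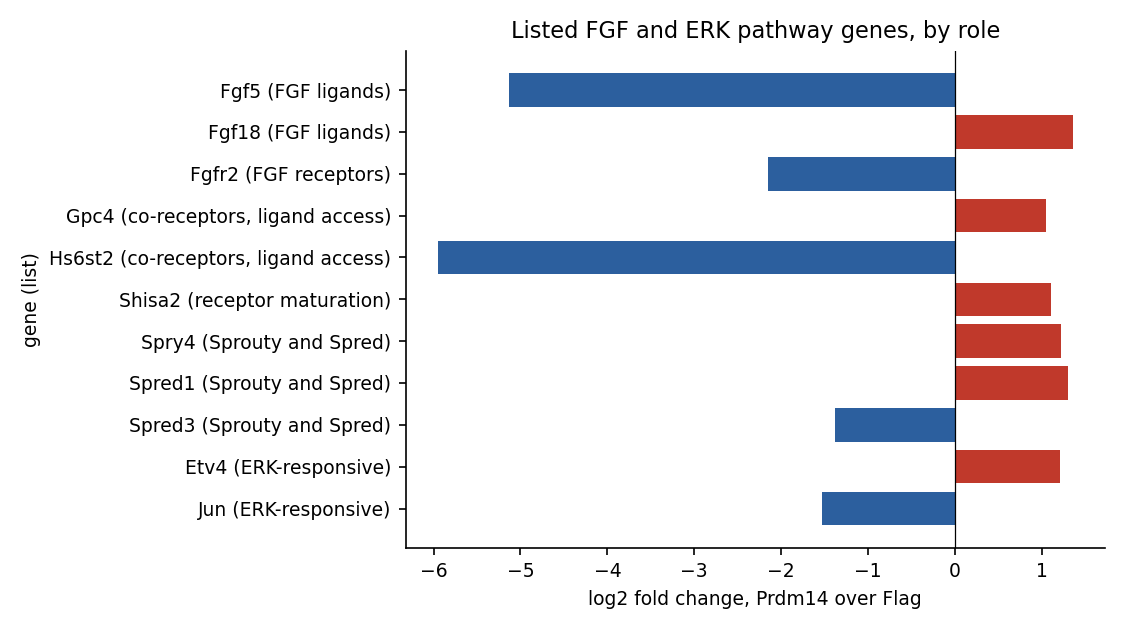
Bars give the log2 fold change of Prdm14 over Flag (horizontal axis) in the authors' deposited table for the 11 listed pathway genes, ordered by role (vertical axis), red where higher and blue where lower. The ligand, ligand access, inhibitor and ERK-responsive lists hold bars in both directions, and the longest are the decreases of Hs6st2 and Fgf5.

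Markers of cell type and of the naive state moved in the same comparison. Of 7 embryonic stem cell markers, Nanog, Esrrb, Zfp42, Klf4 and Tfcp2l1 were listed, all higher. Their summed mean was 468 TPM in Flag cells and 1351 TPM in Prdm14 cells, and Pou5f1 and Sox2 have no value here. All 5 listed markers are known for the naive state, while Fgf5, a marker of the primed epiblast, was lower (38.1 to 1.09 TPM). The sum of these 5 is therefore not a measure of the number of stem cells. Of 6 primitive endoderm markers Dab2 was listed (17.9 to 1.53 TPM), and of 6 fibroblast or feeder markers none. The part of cell composition in the differences of the 6 genes was not tested, and in bulk RNA fewer cells expressing a gene and less RNA per cell cannot be told apart.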

How the data were processed

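RNA sequencing was made from total RNA of 46C cells taken up in Trizol, read on an MGI2000 instrument, per the labels' protocols. The submitters' processing notes name Bowtie 0.12.2 and build mm10. How TPM was estimated and which test gave the p-values is not given in the sources used here. The deposited table holds, per the file headers, a p-value, a q-value, a log2 fold change and a mean TPM for both conditions, all computed by the authors. The number of values behind a mean and the read depth are not stated, so no interval is given. The means with the most decimals all end in the same digit, as in 89.1485785 TPM (Etv4, Flag cells) and 1.7919695 TPM (Fgfr2, Prdm14 cells). Averaging a pair of values would leave such digits. Whether such values came from separate cultures is not given in the sources used here. The deposited log2 fold change equals the log2 ratio of both means to within 4.09e-11. The table was selected: the smallest absolute log2 fold change is 1.00, the smallest larger mean 5.01 TPM and the largest q-value 0.0427. The q-values imply 20309 tested genes, with a whole-number rank, to within 0.01, in 830 of 886 genes.

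All IDs matched GENCODE M21 on mm10, and coordinates are 1-based. Of the 123 pathway genes, 122 matched a symbol. Folds, ratios, ranks and sums were computed from the means; no test was run. The named genes are the 6 members, every listed gene of the pathway lists, Prdm14 and Gadd45g as a check of the labels, and the 2 listed genes nearest to each member, leaving out of the last predicted models, clone names and mitochondrially encoded genes and those at the floor. Listed cell type markers are named besides. The members and lists were chosen with earlier results of these data known. Promoter windows are from RefSeq. Software was pandas 2.3.3 and numpy 2.4.6 under Python 3.11.15, with plots from matplotlib 3.10.9.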

Additional observations from a re-analysis of the deposited data

How the results depend on the processing

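With 1 TPM added to both means, which cannot change a direction, the log2 fold change was -1.68 for Fgfr2, -1.22 for Spred3 and between 1.01 (Shisa2) and 1.23 (Spred1) for the higher genes. At q-values of at most 0.01 and 0.001, 4 members were higher and 2 lower, and 5 pathway genes were higher and 5 lower. The gene lost there was Fgf18, with a q-value of 0.0384 in the authors' deposited table. With 1 TPM added and a difference of at least 2-fold still required, the counts were the same. The gene lost in that case was Gpc4, which was still higher but at 1.97-fold. With 1 TPM the median of the members was 1.11, against 1.16 in the deposited table. At a difference of at least 2.38-fold, 1 member was higher and 2 lower, with a median of -1.39, and 2 pathway genes were higher and 5 lower. At 4-fold or more, 0 members were higher and 1 lower, with a median of -2.15, and 0 pathway genes were higher and 3 lower. These medians turned sign because the increases are small and a stricter threshold removes them. With a larger mean of at least 10 TPM, 4 members were higher and 1 lower (median 1.21), and 5 pathway genes were higher and 2 lower. Without genes whose span overlaps another annotated gene, 3 members were higher and 0 lower (median 1.21), and 5 pathway genes were higher and 1 lower. Without genes whose exons overlap, an alternative chosen after seeing the data, 4 members were higher and 0 lower (median 1.21), and 6 pathway genes were higher and 2 lower. No paired analysis was possible because the table holds 1 mean per condition, and no replicate could be left out.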
